A study of Sus scrofa with 8 samples.

Results

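Haem breakdown, iron handling and globin expression were followed through 10 genes in the oviduct mucosa of sows that carried spermatozoa sorted for the sex chromosome. The genes were HMOX1, HMOX2, ALAS1, ALAS2, HBB, HBM, FTH1, FTL, TFRC and HAMP. They were chosen by gene symbol, with results of these arrays already known, and their probe sets are all those that the platform annotation gives 1 of these symbols alone. This gave 13 probe sets for the 10 genes (of 6765 genes with a probe set of their own), 3 for ALAS1, 2 for FTL and 1 for each other gene, out of 23999 tested and 24123 in all. A further 5 probe sets carry the symbols of both HDHD2 and FTH1 and were not used. Because the differences between the groups were known when the genes were chosen, those differences are given below as a description.

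The tissue came from 4 weaned crossbred sows (Landrace × Large White) in oestrus, before ovulation. Flow-sorted semen pooled from several boars was placed by laparoscopy, Y-spermatozoa in the oviduct of 1 side and X-spermatozoa in the opposite oviduct of the same sow. Cells scraped from each oviduct 24 h later were run on 1 Affymetrix porcine array each. This gave 4 Y-spermatozoa arrays (Y1 to Y4) and 4 X-spermatozoa arrays (X1 to X4). They are numbered by replicate, and arrays of the same number were taken to be of the same sow. Both groups received sorted, stained spermatozoa, and no oviduct without spermatozoa was analysed here. Each difference is therefore between oviducts given the 2 kinds of spermatozoa and not a response to spermatozoa as such. The methods do not state which side received which kind, and the part of the side was not tested.

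Haem is built in a chain that starts with 5-aminolevulinate synthase, ALAS1 in most tissues and ALAS2 in red cell precursors. Haem oxygenase, the inducible HMOX1 or the constitutive HMOX2, opens the haem ring and releases biliverdin, carbon monoxide and iron. The freed iron is stored in ferritin, a shell of heavy (FTH1) and light (FTL) chains. Cells take iron from transferrin through the receptor TFRC, and the hormone hepcidin (HAMP), known mainly from liver, makes cells withdraw the iron exporter ferroportin. HBB is the beta chain of adult haemoglobin and HBM a globin of the alpha cluster. Both are known from the red cell lineage, and scraped tissue can hold some blood.

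HMOX1 had the largest difference of the 13 probe sets and was higher in the Y-spermatozoa oviduct of 4 of 4 sows. Its deposited signals were 19.9, 36.5, 32.7 and 31.2 in Y1 to Y4, against 11.0, 6.8, 6.3 and 24.9 in X1 to X4. The means were 30.1 ± 7.14 in the Y-spermatozoa oviducts and 12.2 ± 8.69 in the X-spermatozoa oviducts (SD, n = 4 each). The groups overlapped, since the X-spermatozoa oviduct of sow 4 (24.9) lay above the Y-spermatozoa oviduct of sow 1 (19.9). After quantile normalization the log2 difference, Y-spermatozoa minus X-spermatozoa, was 1.56 (SE 0.46), or 2.96-fold. It was uneven between sows, with log2 differences of 0.93, 2.53, 2.45 and 0.35 in sows 1 to 4.

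The HMOX1 signals were dim. The background level, taken as the 95th percentile of the 64 reporter probe sets of each array, averaged 10.7, and HMOX1 lay above the level of its own array on all 4 Y-spermatozoa arrays and on 2 of 4 X-spermatozoa arrays. It was under the median signal of its array on all 8. The size of the difference moved with the processing. Its log2 value was 1.18 (SE 0.34) with signals under background raised to the background level, 0.77 (SE 0.20) with a pseudocount of 16 and 2.17 (SE 0.80) with the hybridisation controls as a covariate. In fits with the sow as a block it was 1.24 (SE 0.49) without sow 2 and 1.27 (SE 0.51) without sow 3, and these were the only fits tried with HMOX1 in them in which its unadjusted limma p did not pass 0.05. It is too dim to enter the alternative that keeps the brighter probe sets alone. The name of the probe set (Ssc.115.1.S1_s_at) marks it as one that can match more than 1 transcript. In bulk tissue such as this, fewer cells of a type and less RNA per cell cannot be told apart.

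HMOX2 was above background on all 8 arrays and its groups overlapped. Its signals were 210.8, 149.6, 187.4 and 172.4 in Y1 to Y4, against 170.3, 165.6, 153.1 and 160.8 in X1 to X4. The log2 difference was 0.14 (SE 0.13), with the Y-spermatozoa oviduct higher in 3 of 4 sows and sow 2 on the other side. It turned to -0.14 when the hybridisation controls entered the fit as a covariate.

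**Figure D1:**
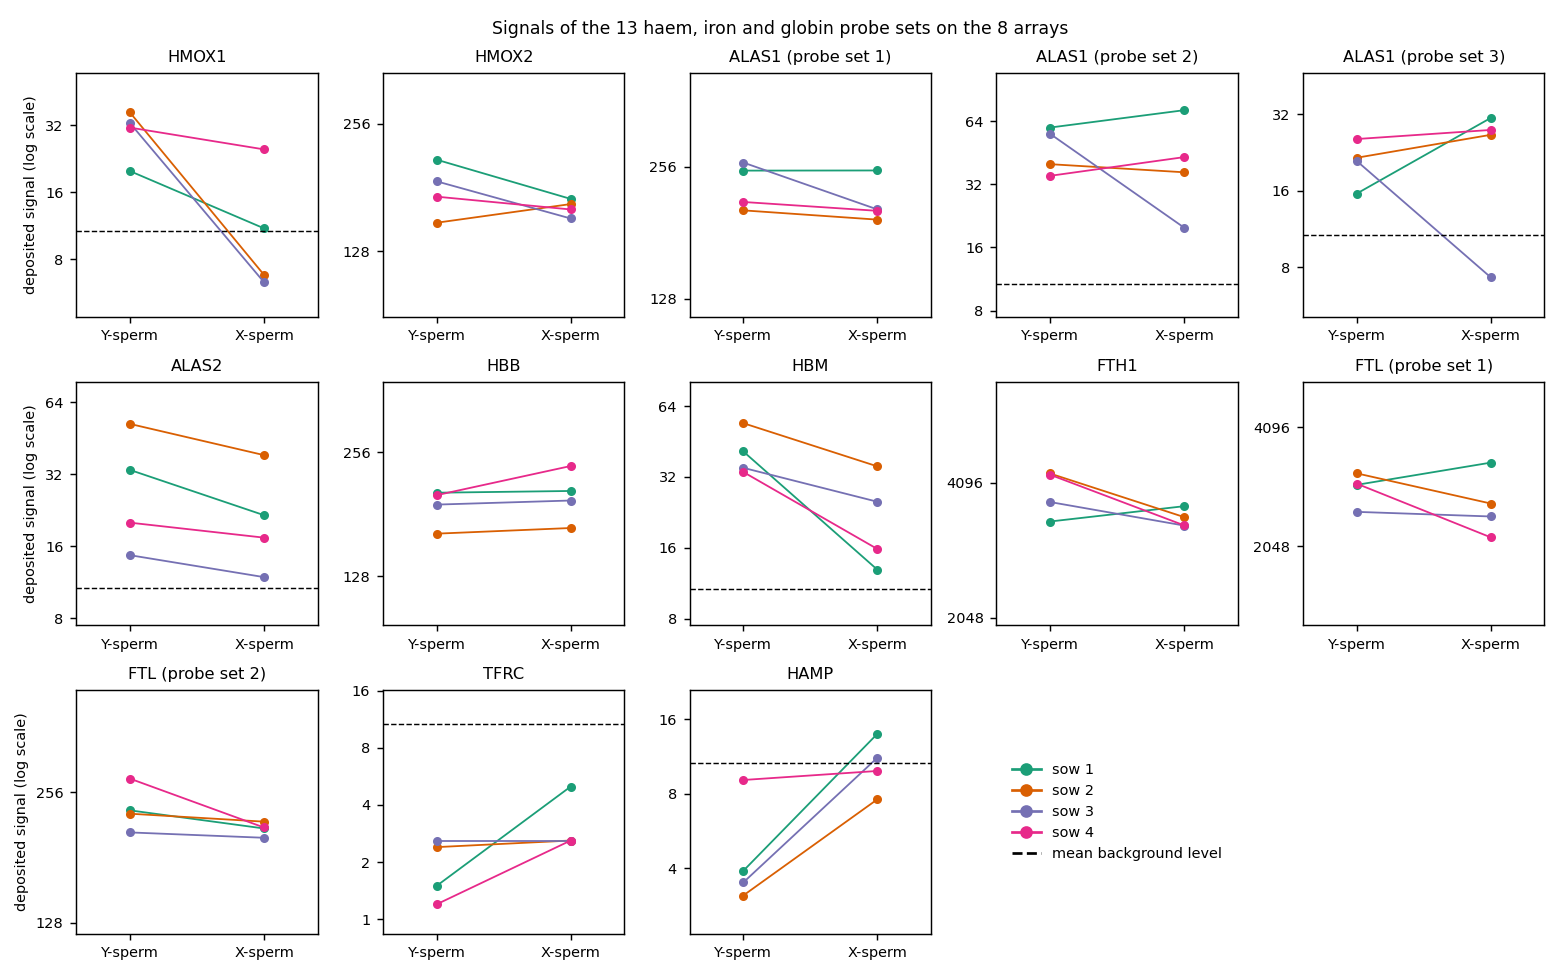
Deposited array signals (log scale, arbitrary units) of the 13 probe sets, 1 panel each, Y-spermatozoa oviducts on the left and X-spermatozoa oviducts on the right, with a line joining the 2 oviducts of a sow. Dashes mark the background level (mean 10.7), drawn where it falls within the panel. HMOX1 and HBM were higher with Y-spermatozoa in every sow but with overlapping groups, while TFRC lay under the line on all 8 arrays.

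The gene for the housekeeping enzyme of haem synthesis, ALAS1, is represented by 3 probe sets, and they did not agree on a direction across sows. The brightest (Ssc.21101.1.S1_at) gave 251.1, 203.7, 262.0 and 212.9 in Y1 to Y4, against 251.3, 194.0, 204.7 and 203.2 in X1 to X4, a log2 difference of 0.12 (SE 0.13). The other 2 probe sets turned on sow 3. For Ssc.24921.1.S1_a_at the signals were 59.6, 39.9, 55.7 and 35.1 in Y1 to Y4, against 72.1, 36.5, 19.9 and 43.1 in X1 to X4, a log2 difference of 0.29 (SE 0.39) that became -0.04 without X3.

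For Ssc.24921.3.S1_a_at the signals were 15.6, 21.6, 21.0 and 25.6 in Y1 to Y4, against 31.0, 26.6, 7.3 and 27.8 in X1 to X4. Its log2 difference of 0.08 (SE 0.48) became -0.43 without X3. In sow 3 these 2 probe sets differed by 1.54 and 1.59 on the log2 scale, and in sow 1 by -0.27 and -0.95. The gene ID that the annotation gives all 3 ALAS1 probe sets is listed as a transcribed pseudogene in the RefSeq table of the pig genome, so which ALAS1 transcript they read is uncertain.

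ALAS2, the red cell form of the enzyme, differed far more between sows than between the oviducts of a sow. Its signals were 33.4, 52.0, 14.7 and 20.1 in Y1 to Y4, against 21.6, 38.5, 11.9 and 17.4 in X1 to X4. Sow 2 was high and sow 3 low on both sides, and the groups overlapped, with means of 30.1 ± 16.6 in the Y-spermatozoa oviducts and 22.4 ± 11.5 in the X-spermatozoa oviducts (SD, n = 4 each). Sow accounted for 89.3% of the variance of log2 signal, group for 9.69% and the rest for 1.02%. The log2 difference was 0.44, with the Y-spermatozoa oviduct higher in 4 of 4 sows, by 0.66, 0.46, 0.38 and 0.26. Its SE was 0.50 without the sow as a block and 0.11 with it, so that ALAS2 passed the unadjusted threshold only in fits with the sow as a block. ALAS2 was above background on 7 of 8 arrays, with X3 (11.9) under the level of its array.

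HBB, the adult beta globin, differed little between the oviducts of a sow. The signals were 204.2, 162.5, 191.1 and 201.4 in Y1 to Y4, against 206.2, 167.7, 195.5 and 237.0 in X1 to X4. Sow 2 was lowest on both sides, and the 2 oviducts of sows 1, 2 and 3 differed by -0.03, -0.04 and -0.03 on the log2 scale. In sow 4 the difference was -0.23. The overall log2 difference was -0.08 (SE 0.14), and sow accounted for 85.9% of the variance.

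HBM, the globin of the alpha cluster, had a larger difference. Its signals were 41.1, 54.2, 35.0 and 33.6 in Y1 to Y4, against 12.9, 35.5, 25.1 and 15.8 in X1 to X4. The means were 41.0 ± 9.40 in the Y-spermatozoa oviducts and 22.3 ± 10.2 in the X-spermatozoa oviducts (SD, n = 4 each), a log2 difference of 1.01 (SE 0.34), or 2.01-fold. The Y-spermatozoa oviduct was higher in 4 of 4 sows, by 1.73, 0.64, 0.53 and 1.13. The groups overlapped through sow 2, whose X-spermatozoa oviduct (35.5) was above Y3 and Y4. All 8 arrays were above background. The log2 difference was 0.86 (SE 0.36) without Y2 and 0.88 (SE 0.37) without X4, and 0.71 (SE 0.62) with the hybridisation controls as a covariate, and in these 3 fits HBM did not pass the unadjusted threshold.

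Genes within 3 places of these globins in the RefSeq table were read as well, a choice made after the annotation was seen. LOC100737768, next to HBM, has 3 probe sets. They had log2 differences of 0.04 (SE 0.15) and -0.45 (SE 0.33, lower in the Y-spermatozoa oviduct of 4 of 4 sows), and the remaining one was above background on 1 of 8 arrays. MPG, a DNA glycosylase gene on the other side of HBM, had a log2 difference of 0.01, and the embryonic globin HBE1, near HBB, one of -0.24 (SE 0.44) at signals near background. None of these 5 probe sets passed an unadjusted limma p of 0.05, and the LOC100737768 probe set at -0.45 did with the sow as a block.

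Both ferritin chains gave bright signals, above the median of the array on all 8 arrays. FTH1 had signals of 3357.0, 4294.2, 3710.0 and 4267.9 in Y1 to Y4, against 3631.1, 3434.7, 3288.3 and 3292.1 in X1 to X4. Sow 1 ran against the other sows, and the log2 difference was 0.09 (SE 0.11) on quantile normalized signals, 0.22 where each array was centred on its own median and 0.19 on the deposited scale. The brighter FTL probe set (Ssc.12373.1.S1_at) had 2928.6, 3131.9, 2503.5 and 2949.6 in Y1 to Y4, against 3332.9, 2627.8, 2437.2 and 2158.7 in X1 to X4, a log2 difference of 0.05 (SE 0.15) that became -0.03 without X4. The dimmer FTL probe set (Ssc.6233.1.S1_at) had 232.7, 228.6, 206.9 and 275.5 in Y1 to Y4, against 211.3, 219.1, 201.1 and 212.4 in X1 to X4, a log2 difference of 0.16 (SE 0.12) with the Y-spermatozoa oviduct higher in 4 of 4 sows. None of the 3 ferritin probe sets passed the unadjusted threshold, and the groups overlapped for each of the 3 probe sets.

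Neither the transferrin receptor nor hepcidin gave a level that can be set in folds. TFRC had signals of 1.5, 2.4, 2.6 and 1.2 in Y1 to Y4, against 5.0, 2.6, 2.6 and 2.6 in X1 to X4. These were under background on all 8 arrays. HAMP had 3.9, 3.1, 3.5 and 9.1 in Y1 to Y4, against 14.0, 7.6, 11.2 and 9.9 in X1 to X4. All 4 Y-spermatozoa arrays and 3 of 4 X-spermatozoa arrays were under background for HAMP, and the groups overlapped through Y4. The fitted log2 difference of HAMP was -1.12 (SE 0.35), in the same direction in 4 of 4 sows but only -0.07 in sow 4. With the background level as a floor it was -0.09 (SE 0.09), and with the hybridisation controls as a covariate -0.79 (SE 0.64). In the blocked fits it was -0.90 without sow 1, -1.13 without sow 2 and -0.97 without sow 3, and in these 5 settings HAMP did not pass the unadjusted threshold.

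**Figure D2:**
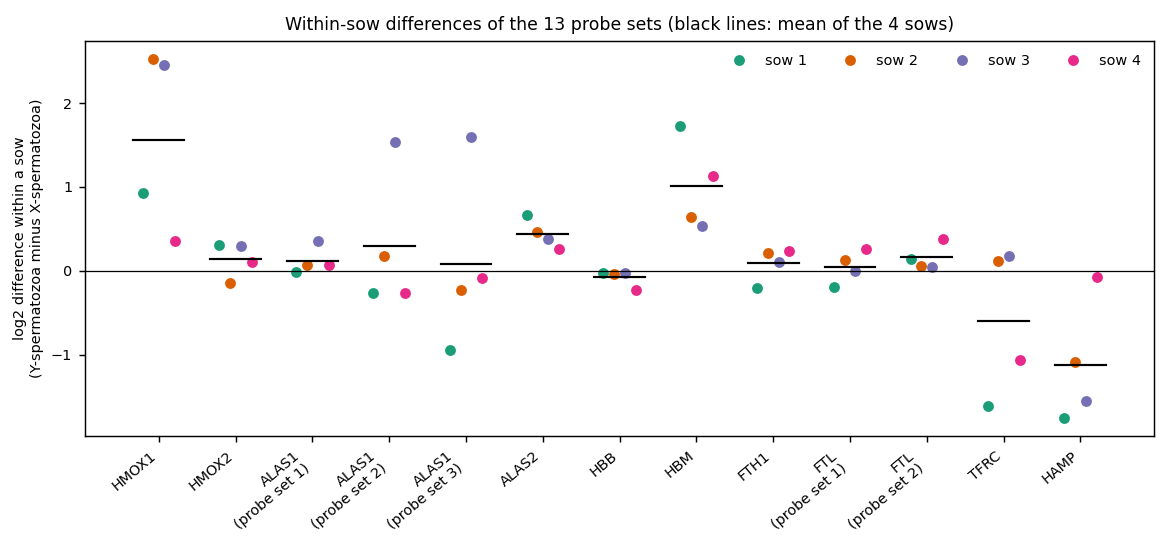
Log2 difference of normalized signal between the 2 oviducts of each sow (vertical axis, Y-spermatozoa minus X-spermatozoa) for the 13 probe sets (horizontal axis). Points are sows and black lines are the mean of 4 sows. HMOX1, ALAS2, HBM and the dimmer FTL probe set lay above 0 in every sow, HBB and HAMP below 0 in every sow, and 2 ALAS1 probe sets took both signs with sow 3 apart.

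Over the 13 probe sets, 10 differences were positive and 3 negative, with a median log2 difference of 0.12 beside 0.00 over all 23999 probe sets. The median size of the difference, sign aside, was 0.16 beside 0.14. An unadjusted limma p under 0.05 was reached by 3 of 13, HMOX1 and HBM higher and HAMP lower, where the background over all probe sets was 3.56% (855 of 23999, 389 higher and 466 lower). With the sow as a block, 4 of 13 passed, with ALAS2 added, beside a background of 5.09%. Since the genes were proposed with these differences known, nothing is read from either share. In this limma fit 0 probe sets, of these genes or others, passed after Benjamini-Hochberg adjustment over all 23999 (2 by a plain t statistic), where the smallest adjusted p was 0.11 and that of every member was 1.00.

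For 6 of 13 probe sets the 2 oviducts differed in the same direction in all 4 sows, against a background of 13.2%, and for 0 of 13 did the groups not overlap, against 2.3%. These counts too rest on differences that were known, and nothing is read from them. Sow accounted for a median of 42.6% of the variance of the 13 probe sets beside 55.0% over all probe sets. Its share was 89.3% for ALAS2 and 85.9% for HBB, against 8.72% for FTH1, where 73.9% of the variance lay with neither sow nor group.

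**Figure D3:**
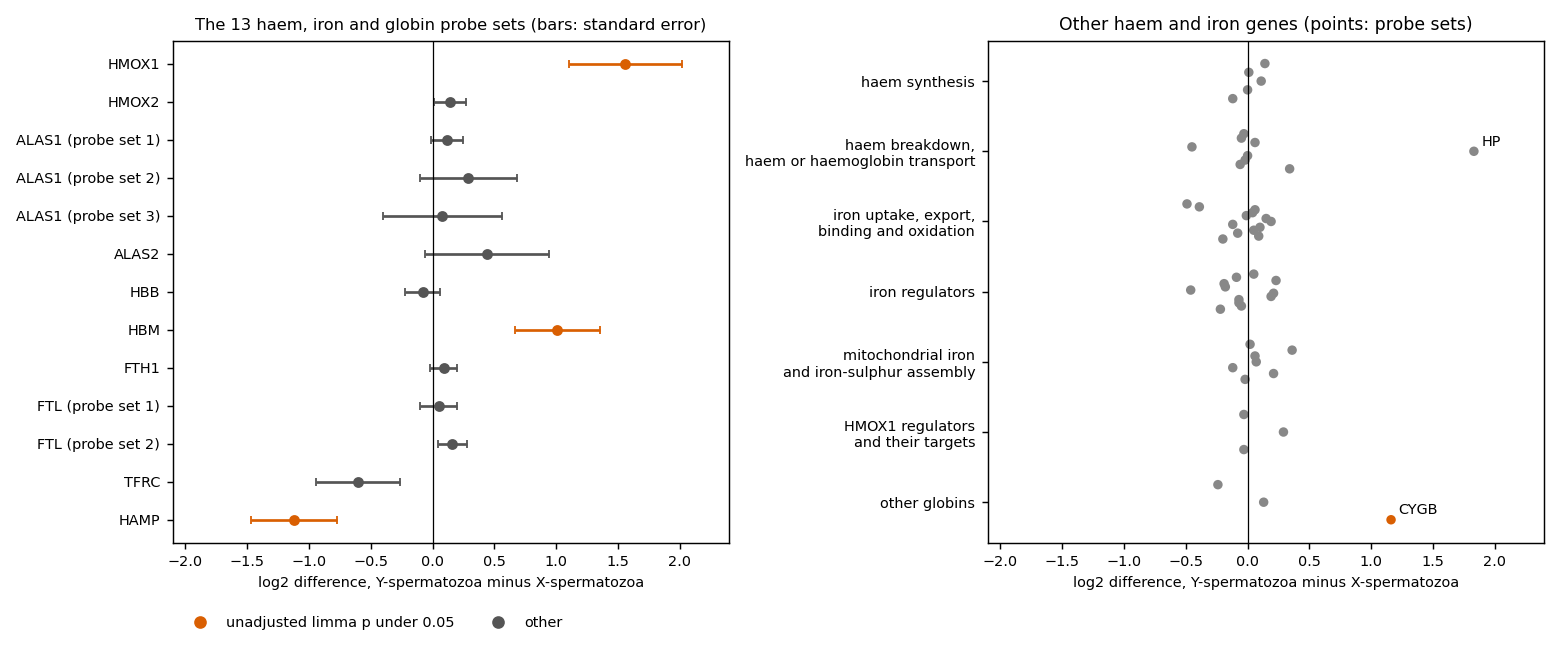
Left, log2 difference (horizontal axis, Y-spermatozoa minus X-spermatozoa) of the 13 probe sets with SE bars. Right, the same quantity for 52 probe sets of 33 other haem, iron and globin genes, by list, 1 point a probe set. Orange marks an unadjusted limma p under 0.05, reached by HMOX1, HBM and HAMP on the left and by CYGB alone on the right.

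Other genes of haem and iron handling were taken from 7 lists set by function, of whose 73 genes 33 were measured by 52 probe sets. Of these 52, 26 were higher and 26 lower, 1 passed the unadjusted threshold (1.92%, beside the background of 3.56%) and 0 passed after adjustment. The 1 was CYGB, cytoglobin, a globin found in many tissues, with means of 5.20 ± 2.67 in the Y-spermatozoa oviducts and 2.38 ± 0.838 in the X-spermatozoa oviducts (SD, n = 4 each, limma unadjusted p = 0.0245, adjusted p = 1.00). It was under background on all 8 arrays, so no fold is given. With the sow as a block its unadjusted limma p was 0.0554 and 0 of 52 passed. Without Y2, 0 of 52 passed in the fit without a block.

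Downstream of HMOX1, biliverdin reductase A (BLVRA), named for its place in the pathway and not by its p, had 47.0 ± 7.72 in the Y-spermatozoa oviducts and 47.7 ± 5.81 in the X-spermatozoa oviducts. HP, haptoglobin, which binds free haemoglobin, had the largest difference of the 52. Its signals were 26.4, 50.5, 63.3 and 171.5 in Y1 to Y4, against 50.7, 36.1, 3.9 and 14.6 in X1 to X4, higher with Y-spermatozoa in 3 of 4 sows and lower in sow 1. The log2 difference of HP was 1.83 (SE 0.90) and its unadjusted limma p 0.0798. HP was above background on 7 of 8 arrays. X3 (3.9) lay under the level of its array and gave sow 3 the largest log2 difference, 4.11. CD163, the macrophage receptor for haptoglobin and haemoglobin, had a log2 difference of 0.06 (SE 0.44) on the probe set above background on all 8 arrays, and its other probe set was above background on 1 of 8. HPX and FLVCR2, a plasma haem binder and a membrane carrier, did not pass the threshold either, and the median of the 9 probe sets of haem breakdown and transport was -0.02.

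None of the 5 probe sets of haem synthesis downstream of ALAS passed. UROD had 63.8 ± 7.31 in the Y-spermatozoa oviducts and 58.6 ± 6.22 in the X-spermatozoa oviducts, and FECH, which inserts the iron, had 242.5 ± 20.2 in the Y-spermatozoa oviducts and 224.8 ± 16.7 in the X-spermatozoa oviducts (SD, n = 4 each). ALAD and PPOX, 2 further steps of the chain, had differences of 0.12 or less in size. Among 13 probe sets of iron uptake, export and binding, 0 passed and the median was 0.04, with log2 differences of 0.19 for the zinc and iron carrier SLC39A14 (brighter probe set) and -0.08 for NCOA4, the receptor that delivers ferritin for breakdown. SLC11A2 had -0.01 (SE 0.17) and 0.10 (SE 0.26) on the probe sets above background on all 8 arrays. Its other probe sets were above background on 0 of 8. TF, transferrin, had -0.12 (SE 0.40) on its brighter probe set, and its other was above background on 2 of 8 arrays. Of 12 probe sets of iron regulators 0 passed. The iron-responsive element binding proteins ACO1 and IREB2, which set the translation of ferritin and the stability of transferrin receptor mRNA, did not pass either. The 3 ACO1 probe sets had log2 differences of -0.05 (SE 0.10, the brightest, lower in 3 of 4 sows), 0.23 (SE 0.13, higher in 4 of 4 sows) and 0.21 (SE 0.25, higher in 2 of 4 sows), and IREB2 had one of 0.19. HIF1A (-0.09, SE 0.14, on its brightest probe set) and FBXL5 (-0.07, SE 0.12, on its brighter one) did not pass. Of their other probe sets, only Ssc.390.2.S1_at of HIF1A (-0.19, SE 0.24) was above background on all 8 arrays.

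The 7 probe sets of mitochondrial iron and iron-sulphur assembly (SLC25A37, SLC25A38, NFS1, GLRX5 and ISCU) had a median of 0.06 and 0 passed. Of the list of HMOX1 regulators and their targets, only NQO1 and GCLM were measured, both targets of NFE2L2, the factor that also drives HMOX1 under oxidative stress. NQO1 had 44.5 ± 14.4 in the Y-spermatozoa oviducts and 45.0 ± 9.94 in the X-spermatozoa oviducts, and the brighter GCLM probe set had 51.6 ± 20.4 in the Y-spermatozoa oviducts and 53.1 ± 19.7 in the X-spermatozoa oviducts (SD, n = 4 each). The dimmer GCLM probe set had a log2 difference of 0.29 (SE 0.26), higher with Y-spermatozoa in 3 of 4 sows. It was above background on 4 of 4 Y-spermatozoa arrays and on 1 of 4 X-spermatozoa arrays. None of these 3 probe sets passed the threshold. NGB, neuroglobin, above background on all 8 arrays, had a log2 difference of 0.13 and did not pass.

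Cell markers were summed per array to set beside these values. The sums and their log2 differences are of deposited signals, without the quantile normalization used for the differences above. The permutation tests in this paragraph swapped arrays between the groups and ignored the pairing by sow. In the red cell list 4 of 19 genes were measured, and their sum ran from 400.0 to 693.9 in the Y-spermatozoa oviducts and from 491.5 to 765.5 in the X-spermatozoa oviducts, with EPB41, also made outside blood, giving most of it. AHSP, the chaperone of alpha globin, was above background on 1 of 8 arrays, and KLF1, an erythroid transcription factor, on 5. The macrophage sum (9 of 14 genes, CD163 and CD14 among them) ran from 270.4 to 448.6 in the Y-spermatozoa oviducts and from 244.6 to 332.9 in the X-spermatozoa oviducts. The smooth muscle sum (4 of 5 genes) had the largest difference of the 8 lists, at 1129.0 to 3803.6 in the Y-spermatozoa oviducts and 1622.9 to 4609.1 in the X-spermatozoa oviducts (log2 difference -0.46, lower in 3 of 4 sows, exact two-sided permutation p = 0.457). The endothelium sum (6 of 6 genes) ran from 222.5 to 437.6 in the Y-spermatozoa oviducts and from 252.0 to 370.2 in the X-spermatozoa oviducts, and 1 probe set of VWF, a clotting factor of endothelium, was higher in 4 of 4 sows (log2 difference 0.49, SE 0.36) and passed the unadjusted threshold only with the sow as a block. The sums for neutrophils, ciliated cells and T cells overlapped between the groups as well. LTF, also on the iron list, gave most of the neutrophil sum (1324.7 of 1343.5 in Y1), so that sum says little about neutrophils. Of the other neutrophil genes, S100A9 was above background on 4 of 8 arrays, MMP9 on 3, and S100A12 and ELANE on 1 each. After quantile normalization the 6 neutrophil probe sets had log2 differences from -1.69 (S100A12) to 0.46 (S100A9). Of these, 3 were positive and 3 negative, and 0 passed the unadjusted threshold. S100A8 (neutrophils) and CD4 (T cells) were under background on all 8 arrays. The secretory epithelium sum (5 of 7 genes), led by the oviduct glycoprotein OVGP1, did not overlap, at 15642.8 to 16124.0 in the Y-spermatozoa oviducts and 12721.9 to 15514.1 in the X-spermatozoa oviducts (log2 difference 0.21, exact two-sided permutation p = 0.0286, the smallest that 4 against 4 arrays allow, and 0.229 adjusted over 8 lists). OVGP1, a defining marker of oviduct epithelium, was above background on all 8 arrays and had a log2 difference of 0.02 after quantile normalization and 0.29 on the deposited scale. Of the array measures, the median signal was 38.7 to 39.9 in the Y-spermatozoa arrays and 39.8 to 41.2 in the X-spermatozoa arrays, and the 27 hybridisation controls averaged 9.94 in the Y-spermatozoa arrays and 9.73 in the X-spermatozoa arrays on the log2 scale (exact two-sided permutation p = 0.0571). The part of tissue make-up and of these array measures in the differences above was not tested, beyond the fit with the hybridisation controls as a covariate.

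**Figure D4:**
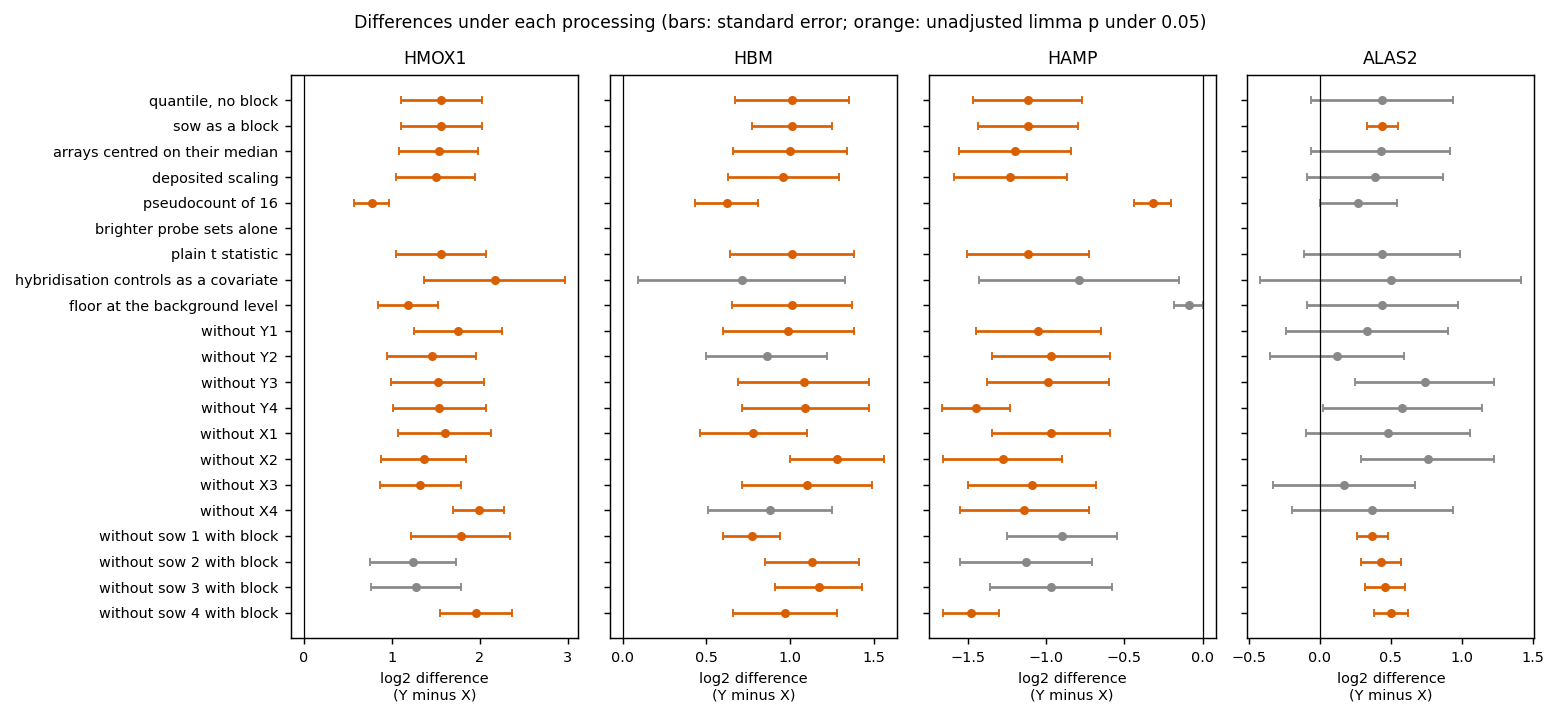
Log2 difference (horizontal axis, Y-spermatozoa minus X-spermatozoa) with SE bars for HMOX1, HBM, HAMP and ALAS2 under each processing alternative (rows), where Y1 to X4 are arrays and the bottom rows leave out a sow. Orange marks an unadjusted limma p under 0.05. No point crosses 0, HAMP shrinks to -0.09 with the background level as a floor, and ALAS2 is orange only with the sow as a block. The row of brighter probe sets alone is empty because these 4 are under its limit.

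The genes whose signals ran most like those of 4 members over the 8 arrays were listed as a description, from 5947 or 5948 probe sets with 1 gene symbol and a mean above the median signal. They share the arrays and their scaling with the members. Nearest to HBB were UFD1 (Pearson r = 0.959), HNRNPDL (0.952), RETSAT (0.944) and TIMM21 (0.942). Nearest to ALAS2 were RBM8A (0.950), RRP1B (0.945), RIC8A (0.937) and CUTA (0.932). Nearest to HMOX1 were GRPEL1 (0.924), PABPN1 (0.915), OGFOD1 (0.913) and CENPB (0.905), and nearest to FTH1 were CHMP4A (0.940), C14H12orf49 (0.892), PPIE (0.883) and MRPL1 (0.880). No other haem, iron or globin gene was among these neighbours, but the brightness limit kept many of them out of the search. Of the 13 probe sets 7 were above the limit, and of the 52 probe sets of other haem, iron and globin genes 30 were. HMOX1, ALAS2, HBM, TFRC and HAMP were under it and could not be listed. Their absence therefore does not tell whether these genes ran together.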

How the data were processed

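The deposited values are array intensity on a linear scale, made by the authors with Microarray Suite (MAS5, version 5.1) and scaled to the same 2% trimmed mean on each array. The methods describe RMA and limma, and the RMA step was not rebuilt here. No column of the authors' own comparisons was used, and detection calls were not used here. Signals of 24123 probe sets were quantile normalized, floored at 1 and put on the log2 scale, and 124 control probe sets were left out. limma (version 3.58.1, R 4.3.3) was fitted without a block, since the methods name limma and state no block, two-sided, with Benjamini-Hochberg adjustment over 23999 probe sets and a threshold of 0.05. The procedure was tested on simulated data. The number of arrays, 4 a group from 4 sows, limits the precision.

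Both kinds of spermatozoa were placed in opposite oviducts of the same sow. The sample titles give a replicate number and name no sow, so arrays of the same number were assumed to share a sow. Deviations from the group means correlated at 0.187, 0.177, 0.144 and 0.132 in sows 1 to 4, and the sow as a block was an alternative. Other alternatives were median centring, the deposited scaling, a pseudocount of 16, the brighter probe sets alone, a plain t statistic and each array or sow left out. After the data were seen, the hybridisation controls as a covariate and a floor at the background level were added.

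Symbols came from the platform annotation (10099 probe sets with 1 symbol, 198 with several, 13826 with none), and the gene IDs of all 13 probe sets were found in the RefSeq table of Sscrofa11.1, used for names and neighbours alone. The genes and lists were chosen with earlier results of these data known. All 13 probe sets were to be named, with up to 4 genes of each pathway list by smallest p and any that passed, up to 4 markers a list, and the 4 most correlated genes for HBB, ALAS2, HMOX1 and FTH1. Of the neutrophil list, all 6 measured genes were named. Marker sums took the deposited signal of the brightest probe set of each gene.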

Additional observations from a re-analysis of the deposited data

Results flagged for a closer look

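In 30 groups of 4 arrays (the 13 probe sets, HP and CYGB, each group apart), 3 held an array far from the others by Dixon's ratio, and chance gives about 1 in 20. ALAS1 (Ssc.24921.3.S1_a_at) had a signal of 7.3 in X3, where the other X-spermatozoa oviducts had 26.6 to 31.0. TFRC had 5.0 in X1, where the other 3 X-spermatozoa oviducts had 2.6, all under background. HAMP had 9.1 in Y4, where the other Y-spermatozoa oviducts had 3.1 to 3.9, all under background.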

How the results depend on the processing

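The median log2 difference of the 13 probe sets stayed between 0.06 and 0.18 under all 20 alternatives. Of the 13, 3 passed an unadjusted limma p of 0.05, 4 with the replicate block (the sow), 0 among the 7 left with the brighter probe sets alone, 1 (HMOX1) with the hybridisation controls as a covariate and 2 (HMOX1 and HBM) with the background level as a floor. Leaving out an array gave 2 to 3 and leaving out a sow in the blocked fit 2 to 4. Of the other pathway probe sets 1 passed (CYGB), 0 with the replicate block, with the brighter probe sets alone or with the background level as a floor, 2 (CYGB and IREB2) with the covariate, 0 to 2 without an array (0 without Y2, 2 without Y1, X1 or X4) and 0 to 3 without a sow in the blocked fit. With a pseudocount of 16 it was 1, HP in place of CYGB. Over all probe sets, 855 passed, 1222 with the replicate block, 314 of 11999 with the brighter probe sets alone, 770 to 1030 without an array and 1090 to 1208 without a sow in the blocked fit. On the deposited scale 902 passed, 271 higher and 631 lower, beside 389 higher and 466 lower. After adjustment 0 passed, 2 by a plain t statistic, 1 with the background level as a floor and 0 to 4 without an array (4 without Y2). The replicate block changed no call of the 13 probe sets other than that of ALAS2. A pseudocount of 16 brought the log2 difference of HMOX1 to 0.77 and that of HAMP to -0.32. Why counts moved was not tested, beyond the fewer probe sets in the brighter alternative. TFRC and HAMP are too close to background for a fold, and HMOX1 and ALAS2 are measured on only some X-spermatozoa arrays.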
